A study of Drosophila melanogaster with 6 samples.

Results

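The metallothioneins *MtnA*, *MtnB*, *MtnC*, *MtnD* and *MtnE*, the 2 subunits of secreted ferritin (*Fer1HCH* and *Fer2LCH*) and the metal transporters *Ctr1A*, *Ctr1B* and *Mvl* were followed in enteroendocrine cells (EEs) of the adult *Drosophila* midgut, with and without the transcription factor Pros. The genes were listed by name, with earlier results of these data known, and all 10 were found among the 17558 genes of the count table. All 10 also passed the filter on low counts (at least 10 counts in at least 3 samples), which kept 10374 genes. The control samples carried ProsV1-Gal4ts>UAS-GFP and the *pros*-depleted samples the same with pros-RNAi, and each group had 3 samples. The driver's name is spelled with another digit in the labels of *pros*-depleted replicates 2 and 3, and a single driver was taken to be meant. Adult females of 5 to 7 days were kept at 29 °C for 7 days in both groups, which lifts the temperature-sensitive block on Gal4 and switches on GFP and, where carried, the hairpin against *pros*. About 20000 living GFP-positive cells per sample were sorted from pooled guts, so that a cell was collected for its driver activity and not for a hormone. Their RNA was amplified and sequenced.

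Metallothioneins are small, cysteine-rich proteins that bind copper, zinc and cadmium in the cytosol. In flies they are transcribed through the metal-responsive factor MTF-1, and the gut is a main site of their expression, with the copper cell region and the iron cell region of the middle midgut known for storing metal. Ctr1A and Ctr1B carry copper into the cell, and Mvl is the fly relative of the mammalian divalent metal transporters. Insect ferritin stores iron within the secretory pathway as a complex of a heavy chain, *Fer1HCH*, and a light chain, *Fer2LCH*.

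The samples held 27183747 to 40766059 counts on genes. The RNA of EE markers was lower in *pros*-depleted samples. All 7 markers checked (*pros*, itself the target of the hairpin, and *AstC*, *Tk*, *Rab3*, *nSyb*, *Syt1* and *amon*) were called lower. Their summed level was 47992 to 50984 CPM (counts per 1000000, TMM-scaled) in control EEs and 1609 to 2684 CPM in *pros*-depleted samples. A gene was called at an edgeR quasi-likelihood p under 0.01, Benjamini-Hochberg adjusted over the whole table, together with a log2 fold change beyond 0.5 in either direction. By this rule 4.73% of all genes were called higher and 7.96% lower. Of the 8 enterocyte markers, 4 were called higher. All 8 had every *pros*-depleted sample above every control sample, as did 2117 of the 10374 genes tested. Of the 6 progenitor markers, 4 were called higher. In bulk samples a change in the cells sorted and a change in RNA per cell cannot be told apart.

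Of the 10 metal genes, 1 was called higher, *MtnA*, and 0 were called lower, beside the 4.73% and 7.96% of all genes. At an unadjusted p under 0.05, 1 gene was higher and 2 were lower in edgeR's test. The share of all genes at that unadjusted p is not given here, but it cannot be below the 11.4% and 14.6% called at an adjusted p under 0.05. DESeq2 called 1 higher and 2 lower, where it called 9.41% of all genes higher and 12.2% lower. Among the other fits used below, the share of all genes called higher and lower was 3.34% and 6.2% with a replicate block, 11.4% and 14.6% at an adjusted p under 0.05, and 3.57% and 6.29% without the filter. With control replicate 1, 2 or 3 left out it was 3.03%, 1.85% or 2.61% higher and 5.65%, 4.07% or 4.88% lower. With *pros*-depleted replicate 1, 2 or 3 left out it was 2.46%, 3.1% or 2.78% higher and 4.76%, 5.83% or 4.94% lower. The groups did not overlap in 3 of the 10 genes, against 43.0% of all genes tested. The median log2 fold change of the 10 genes was -0.05, and that of all genes tested was 0.02.

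**Figure D1:**
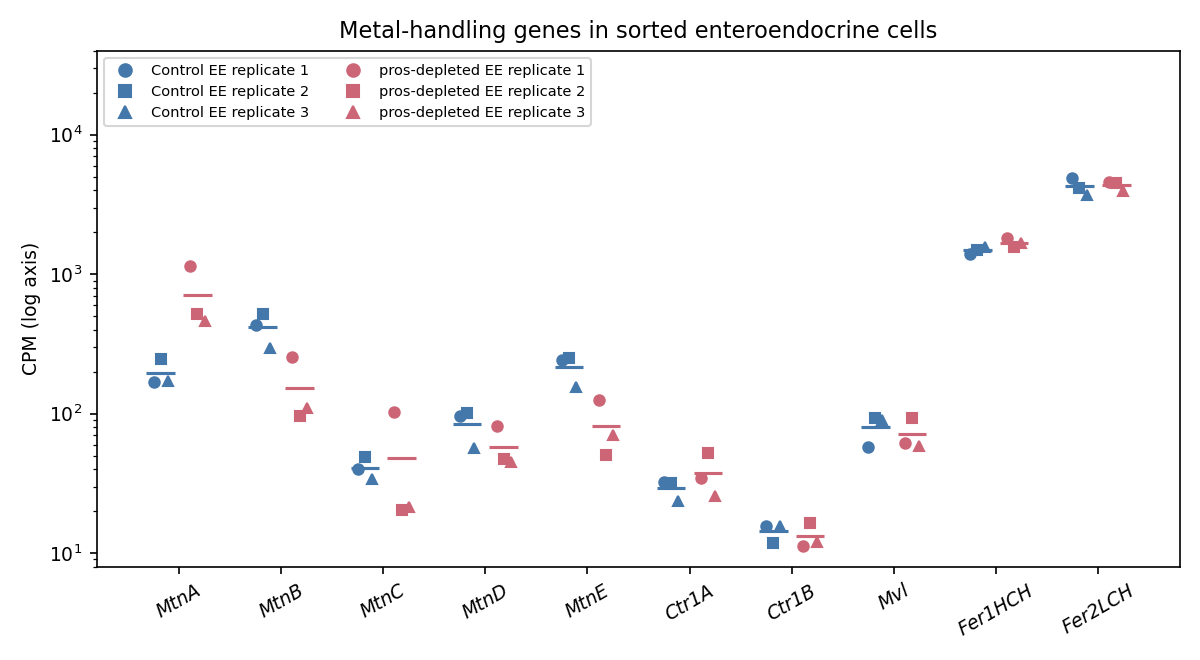
Level of each metal gene in CPM on a log axis, by sample. Blue symbols are control EEs, red symbols are *pros*-depleted EEs, the symbol shape gives the replicate and the line is the group mean (n = 3). *MtnA* lies at 169 to 247 CPM in control EEs and at 463 to 1147 CPM in *pros*-depleted samples, while *MtnB* and *MtnE* lie lower in each *pros*-depleted sample than in each control sample.

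The metallothioneins did not move together. *MtnA* (BDGP6 chromosome 3R, 9783407 to 9784370, minus strand) is the fly metallothionein best known for protection against copper. It had 169, 247 and 172 CPM in control replicates 1 to 3 and 1147, 519 and 463 CPM in *pros*-depleted replicates 1 to 3. No control sample reached the level of any *pros*-depleted sample, and *pros*-depleted replicate 1 was the highest. The group means were 196 ± 43.97 CPM (SD, n = 3) and 710 ± 380 CPM (SD, n = 3), 3.62-fold higher. In log2 terms *MtnA* rose by 1.86 (standard error 0.368, edgeR quasi-likelihood test, Benjamini-Hochberg adjusted p = 0.00819). The estimate stayed between 1.34 and 2.10 when each sample was left out in turn. *MtnA* was nevertheless called in only 2 of these 6 fits, with edgeR adjusted p values of 0.00916 to 0.0312. It was lost without control replicate 1 (log2 fold change 1.77), control replicate 2 (2.04), control replicate 3 (1.76) or *pros*-depleted replicate 2 (2.05).

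*MtnB* (chromosome 3R, 20503102 to 20503746, minus strand), known in flies for binding cadmium as well as copper, moved the other way. Its level was 430, 521 and 295 CPM in control replicates 1 to 3 and 253, 95.9 and 110.5 CPM in *pros*-depleted replicates 1 to 3. Each *pros*-depleted sample lay below each control sample, although *pros*-depleted replicate 1 came close to control replicate 3. The means were 415 ± 114 CPM and 153 ± 86.9 CPM (SD, n = 3). On the log2 scale the difference was -1.44 (standard error 0.394, edgeR adjusted p = 0.0307), which did not pass the threshold.

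*MtnE* (chromosome 3R, 20534021 to 20534704, minus strand) resembled *MtnB*. It had 241, 251 and 156 CPM in control EEs and 126, 50.5 and 69.7 CPM in *pros*-depleted EEs, again without overlap. The log2 fold change was -1.40 (standard error 0.351, edgeR adjusted p = 0.0221), also short of the threshold. *MtnB* and *MtnE* had a Pearson r of 0.992 in log2 CPM over the 6 samples, which share both groups, so that r describes the group difference as well as the spread within groups. Both genes were called lower by DESeq2 (adjusted p = 0.00104 for *MtnB* and 0.000509 for *MtnE*) and by edgeR without *pros*-depleted replicate 1, with log2 fold changes of -1.996 and -1.83.

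*MtnD* (chromosome 3R, 20534962 to 20535301, plus strand) begins 257 bp from *MtnE* and runs in the opposite direction. It had 95.8, 101 and 57.1 CPM in control EEs and 81.5, 47.0 and 44.9 CPM in *pros*-depleted EEs, and the groups overlapped. Its log2 fold change was -0.55 (standard error 0.305, edgeR adjusted p = 0.223).

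For *MtnC* (chromosome 3R, 20360308 to 20360634, plus strand) a single library set the sign. It had 39.9, 49.0 and 33.7 CPM in control EEs, against 103 CPM in *pros*-depleted replicate 1 and 20.4 and 21.4 CPM in *pros*-depleted replicates 2 and 3. With all samples the log2 fold change was 0.24 (standard error 0.587, edgeR adjusted p = 0.801). Without *pros*-depleted replicate 1 it was -0.96 (edgeR adjusted p = 0.0272), still not called. *MtnB*, *MtnC*, *MtnD* and *MtnE* lie within 175 kb of each other, and *MtnA* lies 10.6 Mb away on the same arm. Each of the 5 genes has 2 exons per transcript and codes for a protein of 40 to 44 residues in the Ensembl annotation. Whether reads of 50 bp could be shared among these related genes was not tested.

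**Figure D2:**
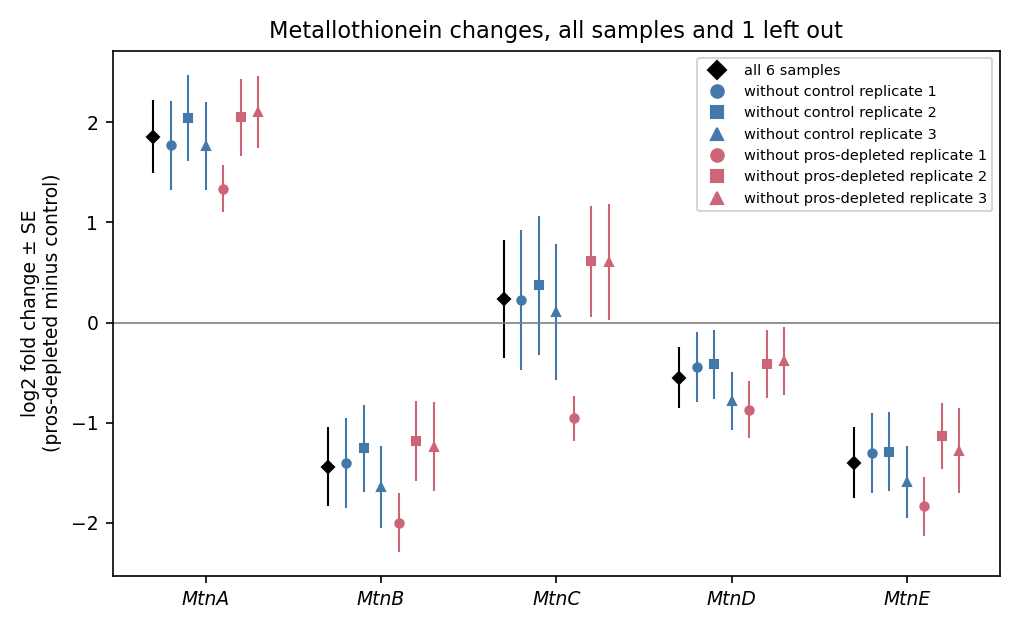
log2 fold change with its standard error for each metallothionein from edgeR, with all 6 samples (black) and with 1 control sample (blue) or 1 *pros*-depleted sample (red) left out. *MtnA* stays between 1.34 and 2.10 and *MtnB* between -1.996 and -1.18, while *MtnC* crosses 0 without *pros*-depleted replicate 1.

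The make-up of the metallothionein counts separated the groups more evenly than the level of any one gene. *MtnA* held 17.3% (95% Wilson interval 17.0 to 17.7), 21.1% (20.7 to 21.6) and 24.1% (23.6 to 24.6) of all metallothionein counts in control replicates 1 to 3. In *pros*-depleted replicates 1 to 3 its share was 67.1% (66.7 to 67.5), 70.8% (70.2 to 71.4) and 65.3% (64.7 to 65.9). The intervals treat each read as an independent draw and leave out the spread between samples. Reads of amplified RNA do not count molecules independently, so the intervals are likely too narrow even for counting error. Divided by exonic length, the share of *MtnA* was 12.9% to 18.3% in control EEs and 54.7% to 59.9% in *pros*-depleted samples. *MtnB* was the largest component in every control sample, at 41.4% to 44.6% of the counts, and held 13.1% to 15.6% in *pros*-depleted EEs. *MtnE* went from 21.5% to 24.7% in control EEs to 6.89% to 9.81%.

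The ratio of *MtnA* to the other 4 metallothioneins summed was 0.210, 0.268 and 0.317 in control EEs and 2.04, 2.43 and 1.88 in *pros*-depleted samples. The mean log2 ratio was -1.94 ± 0.301 (SD, n = 3) in control EEs and 1.07 ± 0.188 (SD, n = 3) in *pros*-depleted EEs. The difference of 3.01 gave p = 0.1 in a two-sided exact permutation test, the smallest p that 3 samples against 3 allow. It was 2.85 to 3.15 when each sample was left out in turn. The members were chosen with earlier results of these data known. The ratio also restates the higher *MtnA* and the lower *MtnB* and *MtnE* given above, so it is a description and no separate support. A ratio of genes within a sample does not depend on the scaling of libraries.

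The sum over the 5 genes did not separate the groups. It was 976, 1169 and 714 CPM in control replicates 1 to 3, and 1710, 732 and 710 CPM in *pros*-depleted replicates 1 to 3. *pros*-depleted replicate 1 was the highest *pros*-depleted sample for all 5 metallothioneins, with 1.77 to 4.93 times the mean of the other 2. Over all genes tested the median of this ratio was 0.980, and 7.09% of genes exceeded 2. Control replicate 2 was likewise the highest control sample for all 5.

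**Figure D3:**
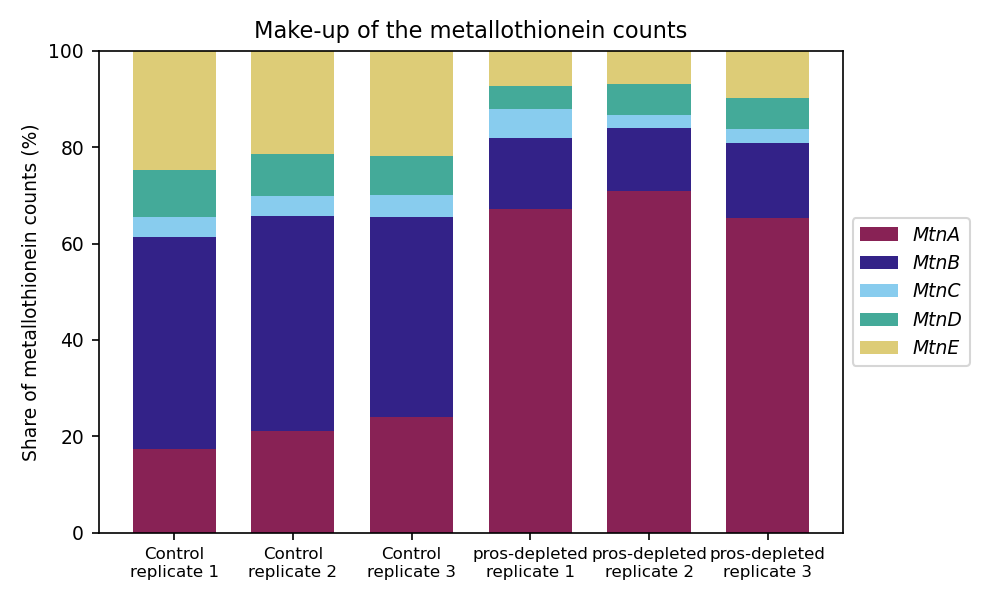
Share of each metallothionein in the summed metallothionein counts (percent, stacked to 100%) of each sample. *MtnA* takes 17.3% to 24.1% in control EEs and 65.3% to 70.8% in *pros*-depleted samples, and *MtnB* takes 41.4% to 44.6% and 13.1% to 15.6%.

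Of the marker lists of other cell types, those of enterocytes and progenitors were higher in *pros*-depleted EEs, as *MtnA* was. The summed level of the 8 enterocyte markers was 787 to 2465 CPM in control EEs and 5464 to 11901 CPM in *pros*-depleted samples, and none of them was at 0. This sum was highest in *pros*-depleted replicate 1, as were *betaTry*, *alphaTry*, *Jon65Aiv*, *Mal-A1* and *Amy-p*. The markers *nub* (26.7, 31.8 and 16.2 CPM in *pros*-depleted replicates 1 to 3) and *Myo31DF* (172, 359 and 210 CPM) were highest in *pros*-depleted replicate 2. *Vha100-4* was highest in *pros*-depleted replicate 3. The 6 progenitor markers summed to 188 to 270 CPM in control EEs and 448 to 665 CPM in *pros*-depleted samples, highest in *pros*-depleted replicate 2. The 3 copper cell region markers (*lab*, *dve* and *Vha100-4*) had overlapping sums, at 61.9 to 75.2 CPM and 59.4 to 66.2 CPM, but did not move alike. Only *dve* overlapped between the groups, at 32.3 to 48.0 CPM and 31.7 to 35.1 CPM. *Vha100-4*, also in the enterocyte list, was at 10.2 to 23.8 CPM in control EEs and higher in each *pros*-depleted sample, at 23.9 to 29.1 CPM (not called). The homeotic gene *lab*, which defines the copper cells, was at 5.69 to 12.8 CPM in control EEs and lower in each *pros*-depleted sample, at 2.001 to 4.25 CPM (log2 fold change -1.42, edgeR adjusted p = 0.0294, not called). The visceral muscle list summed to 22.4 to 30.1 CPM and 6.56 to 11.0 CPM, a difference carried by *up*, which was called lower, while the other 4 genes overlapped between the groups at log2 fold changes of 0.06 to 1.10. The blood cell and fat body list summed to 17.3 to 30.5 CPM and 12.2 to 16.3 CPM, with *Lsp2* at 0 in 2 control samples. Its genes did not move alike. *NimC1* was lower in each *pros*-depleted sample (log2 fold change -3.15, edgeR adjusted p = 0.0439, not called). *Hml* (-2.53), *srp* (-0.22) and *Yp1* (0.69) overlapped between the groups. *NimC1* (13.0 CPM) and *Hml* (6.25 CPM) were highest in control replicate 2. The part of these cell types in the metallothionein levels was not tested.

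By the rule fixed for likeness, the genes outside the list whose log2 CPM followed *MtnA* most closely over the 6 samples were *CG9463* (Pearson r 0.997), *CG42324* (0.996), the peptidoglycan recognition gene *PGRP-SC1b* (0.996), the cytochrome P450 gene *Cyp4ac1* (0.992) and *CG9465* (0.992). A total of 261 genes had an r of at least 0.9, so these are the top of a long list. Like *MtnA*, *CG9463* was highest in *pros*-depleted replicate 1, with 914 counts against 128 and 113 in the other *pros*-depleted samples and 15 to 24 in control EEs. In all 5 genes every *pros*-depleted sample lay above every control sample, and *CG9463* and *CG9465* were called higher. As the genes were picked for following *MtnA* over the same 6 samples, this and the high value in *pros*-depleted replicate 1 come with the choice and are a description. *CG9465* had only 2, 5 and 2 counts in control replicates 1 to 3, against 184, 28 and 43 in *pros*-depleted replicates 1 to 3. It thus passed the filter only through the group where it was high, and its call is no separate support. *CG9463* was called in 3 of the 6 fits that left out a sample, and *CG9465* in 0 of the 3 in which it passed the filter, which left out a control sample each. The fits that lost *CG9463* were those without control replicate 1, 2 or 3. *PGRP-SC1b* has a near-identical copy, *PGRP-SC1a*, so that its counts are uncertain.

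Ferritin was abundant and differed little between the groups. *Fer2LCH* (chromosome 3R, 30387804 to 30390584, plus strand) had 4905, 4180 and 3719 CPM in control EEs and 4610, 4499 and 3937 CPM in *pros*-depleted samples. The groups overlapped, with means of 4268 ± 598 CPM and 4349 ± 361 CPM (SD, n = 3) and a log2 fold change of 0.03 (standard error 0.176, edgeR adjusted p = 0.926). *Fer1HCH* (chromosome 3R, 30385573 to 30388178, minus strand) had 1388, 1501 and 1575 CPM in control EEs and 1823, 1559 and 1660 CPM in *pros*-depleted samples. Its log2 fold change was 0.18 (standard error 0.161, edgeR adjusted p = 0.458). Together the subunits took 0.510% to 0.613% of all counts in control EEs and 0.574% to 0.681% in *pros*-depleted samples.

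The ferritin genes lie head to head, and their exons share 118 bp on opposite strands. As the sources used here do not say whether counting used strand, reads in those 118 bp may belong to either gene. Per exonic length, *Fer2LCH* exceeded *Fer1HCH* 5.09-, 4.02- and 3.404-fold in control replicates 1 to 3 and 3.65-, 4.16- and 3.42-fold in *pros*-depleted replicates 1 to 3. The log2 ratio of *Fer1HCH* to *Fer2LCH* was -2.04 ± 0.292 (SD, n = 3) in control EEs and -1.90 ± 0.144 (SD, n = 3) in *pros*-depleted EEs. Their difference of 0.14 was within the spread (two-sided exact permutation test, p = 0.7), and it was -0.013 without control replicate 1.

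None of the 3 metal importers was called, nor did any of them reach an unadjusted p under 0.05 in edgeR, and DESeq2 called 0 of them. The copper importer *Ctr1A* (chromosome X, 6661647 to 6668258, plus strand) had 32.4, 32.0 and 23.5 CPM in control EEs and 34.5, 52.2 and 25.6 CPM in *pros*-depleted samples, a log2 fold change of 0.35 (standard error 0.274). Its spread came largely from *pros*-depleted replicate 2. *Ctr1B* (chromosome 3R, 8317612 to 8319205, plus strand), which in flies is induced when copper is scarce, had 15.7, 11.8 and 15.5 CPM in control EEs and 11.3, 16.3 and 12.0 CPM in *pros*-depleted samples. Its log2 fold change was -0.12 (standard error 0.213), and its exons share 185 bp with *CR45215* on the same strand and 181 bp with *Poxm* on the opposite strand. *Mvl* (chromosome 3R, 21051383 to 21060800, minus strand) had 57.5, 92.8 and 89.6 CPM in control EEs and 61.5, 93.0 and 58.5 CPM in *pros*-depleted samples, a log2 fold change of -0.17 (standard error 0.259). In all 3 genes the groups overlapped.

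Levels can be compared between genes only per length, and were then taken as CPM per kb of exon. In control EEs *Fer2LCH* stood first at 2590 ± 363 CPM per kb (SD, n = 3), above the ranges of all the others. *MtnB* (711 ± 195 CPM per kb) and *Fer1HCH* (626 ± 39.6 CPM per kb) followed and overlapped each other. *MtnE* (357 ± 86.5 CPM per kb), *MtnD* (309 ± 87.7 CPM per kb) and *MtnA* (280 ± 62.8 CPM per kb) overlapped as well, and *MtnC* (153 ± 28.6 CPM per kb) lay below them. The importers *Ctr1B*, *Mvl* and *Ctr1A* were far lower, at means of 15.0, 14.2 and 12.6 CPM per kb with overlapping ranges.

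In *pros*-depleted EEs *Fer2LCH* was again first, at 2639 ± 219 CPM per kb (SD, n = 3). *MtnA* had moved from rank 6 to rank 2, at 1014 ± 543 CPM per kb, with a range that overlapped that of *Fer1HCH* (707 ± 56.1 CPM per kb). *MtnB* (262 ± 149 CPM per kb), *MtnD* (211 ± 75.1 CPM per kb), *MtnC* (180 ± 177 CPM per kb) and *MtnE* (136 ± 64.8 CPM per kb) overlapped one another. The importers remained lowest, at means of 12.6 to 16.0 CPM per kb. RNA amplification can favour parts of a transcript, so these levels between genes are approximate.

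**Figure D4:**
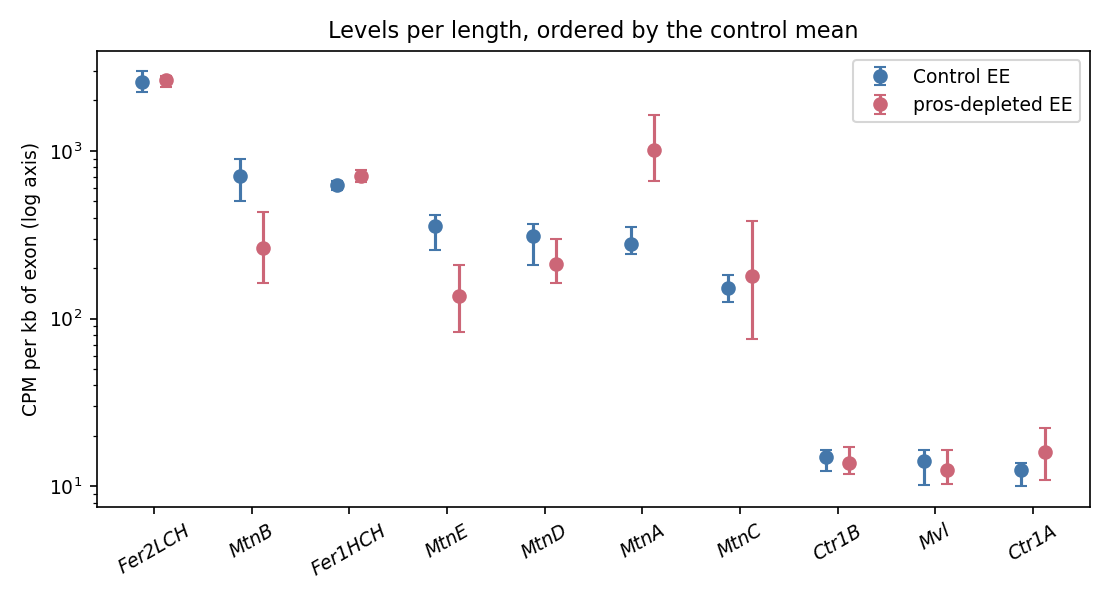
Mean level per exonic length (CPM per kb, log axis) of each metal gene in control (blue) and *pros*-depleted (red) EEs, ordered by the control mean, with bars from the lowest to the highest of 3 samples. *Fer2LCH* is first in both groups and *MtnA* goes from rank 6 in control EEs to rank 2 in *pros*-depleted EEs.

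A list of 3 regulators was among 40 further genes of metal handling, of which 38 were tested. *MTF-1*, the activator of metallothionein genes, had 14.5, 15.8 and 10.6 CPM in control EEs and 9.43, 19.8 and 12.2 CPM in *pros*-depleted samples. The samples overlapped, and the log2 fold change was 0.02 (standard error 0.294, edgeR adjusted p = 0.973). Its exons share 644 bp with *Bet3* and 251 bp with *CG42526* on the opposite strand and 467 bp with *CR45872* on the same strand. *Irp-1A*, which in its form without an iron-sulphur cluster binds iron-responsive elements in ferritin mRNA, went from 86.3 ± 10.7 CPM to 69.3 ± 5.50 CPM (SD, n = 3), and its groups overlapped at a log2 fold change of -0.32 (standard error 0.170, edgeR adjusted p = 0.208). Its relative *Irp-1B* had 23.9, 15.6 and 18.7 CPM in control EEs and 29.4, 28.3 and 25.4 CPM in *pros*-depleted samples, without overlap. Its log2 fold change of 0.51 (standard error 0.195, edgeR adjusted p = 0.0897) was not called.

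Zinc transporters held most of the called genes of these lists. Of the 16 tested, 4 were called lower and 0 higher, beside 7.96% and 4.73% of all genes, with a median log2 fold change of -0.44. At an unadjusted p under 0.05 in edgeR, 2 were higher and 6 lower, and the share of all genes at that unadjusted p is not given here. DESeq2 called 0 higher and 4 lower, beside 9.41% and 12.2% of all genes. *ZnT63C*, of the ZnT family that moves zinc out of the cytosol, fell from 239, 225 and 218 CPM to 55.8, 67.8 and 67.3 CPM. This was a log2 fold change of -1.84 (standard error 0.168, edgeR adjusted p = 0.000251). Its relative *ZnT77C* fell from 31.6, 44.1 and 24.6 CPM to 10.02, 11.4 and 8.10 CPM, a log2 fold change of -1.76 (standard error 0.252, edgeR adjusted p = 0.00195).

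*Zip42C.1* and *Zip42C.2*, of the ZIP family that brings zinc into the cytosol, were the lowest of the list. They lie close together on the minus strand of chromosome 2R, at 6716342 to 6717707 and 6718196 to 6719533. Their calls may therefore not be independent of each other. *Zip42C.1* fell from 35.3, 28.8 and 14.5 CPM to 2.66, 3.22 and 2.10 CPM, a log2 fold change of -3.30 (standard error 0.358, edgeR adjusted p = 0.000534). *Zip42C.2* fell from 9.36, 6.28 and 2.85 CPM to 1.35, 1.32 and 0.656 CPM, a log2 fold change of -2.48 (standard error 0.488, edgeR adjusted p = 0.00801). *ZnT63C* and *Zip42C.1* were called in all 6 fits that left out a sample and *ZnT77C* in 5, whereas *Zip42C.2* was called in 1. The count of zinc transporters called lower was 2 without *pros*-depleted replicate 1. The other 12 zinc transporters tested had log2 fold changes of -0.63 to 0.62. *ZnT33D* had 0 counts in every sample, which allows up to 0.0755 to 0.110 CPM per sample.

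Of the 7 copper genes tested, *Sod* was called lower and 0 were called higher, beside 7.96% and 4.73% of all genes. Neither an unadjusted p under 0.05 in edgeR nor DESeq2 marked any as higher. *Sod* encodes the copper-zinc superoxide dismutase, and its level fell from 860, 1017 and 947 CPM in control EEs to 541, 487 and 565 CPM in *pros*-depleted samples. The groups stood well apart, at a log2 fold change of -0.83 (standard error 0.165, edgeR adjusted p = 0.00855). The call was narrow, since *Sod* was called in 0 of the 6 fits that left out a sample. Its log2 fold change was then -0.88 to -0.76, with edgeR adjusted p values of 0.0210 to 0.0390. The median of the copper list was -0.20. The copper exporter *ATP7* (log2 fold change 0.26), its partner chaperone *Atox1* (-0.08) and *Ccs*, the chaperone that loads Sod (-0.20), were not called. *Ctr1C*, the third copper importer of the family, had 0 counts in every sample.

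No gene of the 12 in the iron list was called by edgeR, where 1 was higher and 2 were lower at an unadjusted p under 0.05. The share of all genes at that unadjusted p is not given here. DESeq2 called 1 lower, beside 12.2% of all genes. The list had a median log2 fold change of 0.06. The largest differences were in low genes, with *Mco1*, a multicopper oxidase, at 5.59, 10.6 and 9.64 CPM in control EEs and 2.72, 2.82 and 0.951 CPM in *pros*-depleted samples (log2 fold change -1.99, edgeR adjusted p = 0.0125). *Tsf1*, the iron carrier of the hemolymph, had 1.33, 1.75 and 0.604 CPM in control EEs and 9.46, 0.989 and 2.92 CPM in *pros*-depleted samples (log2 fold change 1.87, edgeR adjusted p = 0.110), with overlap between the groups. *Mco1* and *Tsf1* were chosen after their values were seen. Over all 38 genes of metal handling tested, 5 were called lower, or 13.2% beside 7.96% of all genes tested.

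**Figure D5:**
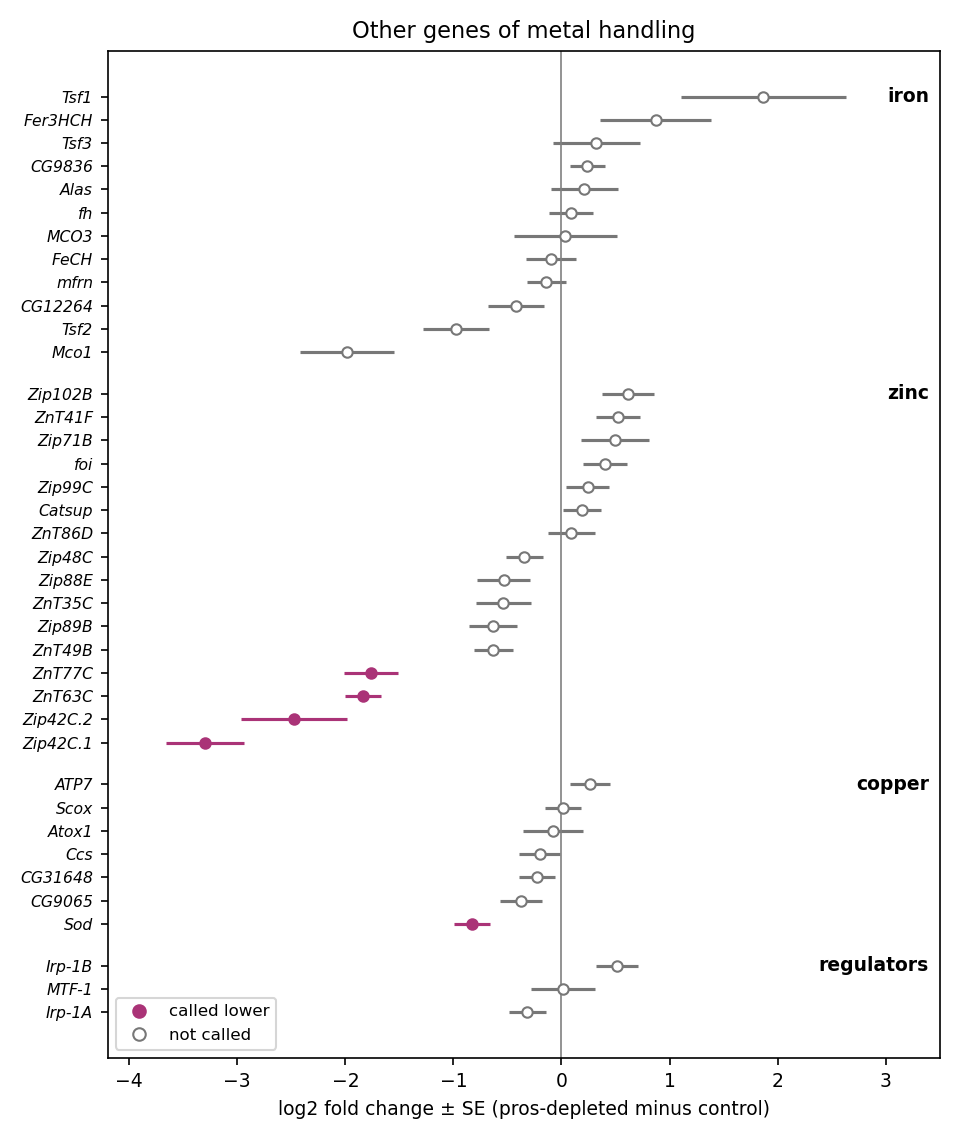
log2 fold change with its standard error (edgeR) for the 38 other metal-handling genes tested, grouped as regulators, copper, zinc and iron. Filled symbols mark the 5 genes called lower, *Sod* at -0.83 and the zinc transporters *ZnT77C*, *ZnT63C*, *Zip42C.2* and *Zip42C.1* at -1.76 to -3.30. All the others are open, and none is called higher.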

How the data were processed

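Sequencing libraries were made from poly(A) RNA of sorted EEs, 3 control and 3 *pros*-depleted samples grouped by their labels. The authors deposited raw counts per gene, made with featureCounts 1.6.3 from single-end 50 bp reads mapped on BDGP6, without normalization. The aligner, the strand setting and the treatment of reads with several positions are not given in the sources used here. Genes reaching 10 counts in 3 or more samples were compared by edgeR 4.0.16 (R 4.3.3, TMM scaling, quasi-likelihood test, Benjamini-Hochberg adjustment). The thresholds, 0.01 for the adjusted p and 0.5 for the size of the log2 fold change, are those of the study, set there with DESeq2. Standard errors were taken from the fold change and the F statistic (size of the log2 value over the root of F). CPM are counts per 1000000 of the TMM-scaled library, and log2 CPM used a prior count of 2. The fits were first tested on simulated data. The p-values of edgeR set the difference between the groups against the spread between samples, which is estimated partly from all genes. They rest on these 3 samples per group.

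The members and gene lists were chosen with earlier results of these data known. Genes named are all members, the 3 regulators, every listed metal gene that was called, and the 5 genes most correlated with *MtnA*. The EE, enterocyte and copper cell region marker lists are also named in full. The single markers picked out and the other genes named (*ATP7*, *Atox1*, *Ccs*, *Ctr1C*, *ZnT33D*, *lab*, *up*, *Lsp2*, *NimC1*, *Hml*, *srp*, *Yp1*, *Mco1*, *Tsf1*, *Hsp27*, *Hsp68* and *Hsp83*) were chosen after their values were seen. List genes were matched by symbol or RefSeq synonym. Coordinates are those of the table and equal Ensembl's BDGP6 for all 10 members. Alternatives were DESeq2 1.42.0, RLE factors, library size alone, leaving out mitochondrial genes, other filters and thresholds, a replicate block, and leaving out each sample. Sequences were not used here. Figures were drawn with matplotlib 3.10.9, and exact tests used scipy 1.17.1.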

Additional observations from a re-analysis of the deposited data

How the results depend on the processing

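*MtnA* kept its direction in all 15 alternatives, with log2 fold changes of 1.75 to 1.98 outside the fits that left out a sample and 1.34 to 2.10 within them, and adjusted p values of 1.92e-06 (DESeq2) to 0.0312 (edgeR). With the replicate number as a block it was 1.75 (edgeR adjusted p = 0.0194), no longer called. The block also ended the calls of *Sod*, *CG9463* and *CG9465* among the genes named, and 346 genes were then called higher and 643 lower, against 491 and 826. The numbers were not taken to pair samples, since deviations of same-numbered samples correlated at -0.16, 0.20 and 0.10 across genes, and control replicates 1 and 3 correlated better with another number. *MtnB* was called lower with DESeq2 (-1.43), without *pros*-depleted replicate 1 (-1.996) and at an adjusted p under 0.05 (-1.44), within -1.996 to -1.18 when samples were left out. *MtnE* was called with DESeq2 (-1.39), without a filter on low counts (-1.43), without *pros*-depleted replicate 1 (-1.83) and at 0.05 (-1.40), within -1.83 to -1.13. *MtnC* reversed under the block (-0.21) and without *pros*-depleted replicate 1, within -0.96 to 0.61. *Fer2LCH* reached -0.0083 without the filter and -0.072 to 0.15 with samples left out. *MTF-1* reached -0.016 without the filter and -0.029 under the block, and -0.32 to 0.24 with samples left out. The ferritin ratio changed by -0.013 to 0.28. The cause of these changes was not tested.

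Members called higher numbered 0 under the block and 0 to 1 with samples left out. Members called lower numbered 2 with DESeq2, 1 without the filter, 2 at 0.05 and 0 to 2 with samples left out. The copper list had 0 called lower with library size alone, under the block, at an absolute log2 fold change over 1 and with any sample left out. The zinc list had 2 to 4 with samples left out and 5 at 0.05, and the iron list had 1 with DESeq2, 1 without the filter and 2 at 0.05. All genes called higher were 976 with DESeq2, 1184 at 0.05 and 188 to 317 with samples left out, and those called lower were 1267, 1519 and 413 to 596. Library size alone moved the median log2 fold change by 0.12, to 46.8% of calls higher against 37.3%, and turned no member's direction.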

Other observations

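Of the 12 heat shock genes tested, a list kept as a sign of stress in handling, 5 were called lower in *pros*-depleted EEs by edgeR, beside 7.96% of all genes, and 7 were not called. The groups overlapped in 5 of the 12, beside 5918 of the 10374 genes tested, and *Hsp27* (0.23) and *Hsp83* (0.25) had log2 fold changes above 0. The summed level of the list was 9028 to 14816 CPM in control samples and 4017 to 7761 CPM in *pros*-depleted samples. *Hsp68*, named after its values were seen, had 184, 240 and 347 CPM in control replicates 1 to 3 and 63.0, 44.4 and 104 CPM in *pros*-depleted replicates 1 to 3 (log2 fold change -1.87, edgeR adjusted p = 0.00702). The other 4 genes called were copies of *Hsp70*, whose near-identical sequences make the split of reads between them uncertain. The list was lowest in *pros*-depleted replicate 2. It had 6448 CPM in *pros*-depleted replicate 1, which among the *pros*-depleted samples alone was the highest for all metallothioneins. The part of these genes in the metallothionein levels was not tested.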
